A study of Mus musculus with 2 samples.

Results

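The nuclear genes of the mitochondrial respiratory chain were followed in RNA from myeloid-derived suppressor cells (MDSCs), immature myeloid cells known for holding back T cells in tumours. The members were the rows of the deposited gene table that are typed as protein coding and whose symbol begins with Nduf, Uqcr, Cox4 to Cox8 or Atp5, or is Sdha, Sdhb, Sdhc or Sdhd. This rule took 96 of 55401 rows, with 95 different symbols because Atp5o has 2 rows. Complex I held 45 of them, complex II 4, complex III 8, complex IV 21 and complex V 18. Ndufa4 and its relative Ndufa4l2 carry complex I names but were counted with complex IV, where the Ndufa4 protein is now placed. The 8 Ndufaf genes encode assembly factors and not subunits, and the row Cox5b-ps is described in the table as a pseudogene although it is typed as protein coding.

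The cells came from 8-week-old C57BL/6 mice that bore tumours of MC38, a mouse colon carcinoma line. They were taken out with magnetic beads and spent 24 h in culture with MC38 cells. One genotype was LysM-cre, Mettl3fl/fl, in which Cre is driven from the lysozyme 2 locus of myeloid cells (1 library), and the other was Mettl3fl/fl without Cre (1 library). Floxed alleles of Mettl3, the methyltransferase that writes N6-methyladenosine on messenger RNA, were thus shared by both. The labels do not say how many animals a library holds, and the characteristics of the LysM-cre sample name MC39 where those of the other sample name MC38. Mettl3 had 1333 counts in the library labelled LysM-cre and 1413 counts in the Mettl3fl/fl library, out of totals of 59393864 and 59506878 counts. The ratio of depth-scaled counts (CPM, counts relative to the library total) was 0.945 with an exact 95% interval of 0.876 to 1.02. A count over the whole gene does not resolve the floxed exons and so does not check the deletion, and directions are given for the library by its label. With 1 library per genotype no difference has a replicate check and no p-value is given. The intervals cover counting error only.

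The respiratory chain passes electrons from NADH at complex I, or from succinate at complex II, through ubiquinone to complex III, and then by cytochrome c to complex IV, where oxygen is reduced. Complexes I, III and IV pump protons, and complex V, the ATP synthase, uses their return to make ATP. The mitochondrial genome encodes a small set of core subunits and the nucleus encodes the rest, among them every subunit of complex II. Neutrophils are known for relying mainly on glycolysis, whereas monocytes and macrophages keep more active mitochondria.

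Respiratory chain transcripts differed little between the libraries, with a small lean towards the library labelled LysM-cre. Of the 96 rows, 88 reached the minimum of a mean of 1 FPKM (fragments per kilobase of gene, adjusted for depth) and were kept. On the scale of log2(FPKM + 1), which understates differences of low genes, the library labelled LysM-cre had 61 of the 88 higher and 27 lower. Over the 10250 protein-coding rows kept by the same minimum, 50.7% were higher and 49.3% lower, and over all 12526 kept rows 50.3% and 49.7%. The median log2 ratio was 0.07 over the members and 0.00 over all kept rows. None of the 88 was higher by 1.5-fold or more and none lower by as much, where 3.19% of all kept rows were higher and 3.28% lower, or 1.53% and 1.6% of the protein-coding rows. At 2-fold the shares were 1.31% and 1.18% of all kept rows, or 0.576% and 0.488% of the protein-coding rows. At a lower threshold, 25% higher or 20% lower in FPKM + 1, 2 members (Uqcr11 and Ndufaf8) were past it on the higher side and 1 (Cox4i1) on the lower side. Past it were 8.41% of all kept rows on the higher and 7.7% on the lower side, or 5.54% and 4.57% of the protein-coding rows. The members together took 0.514% of all counts in the library labelled LysM-cre and 0.494% in the Mettl3fl/fl library, a ratio of 1.04 (exact 95% interval 1.04 to 1.05).

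**Figure D1:**
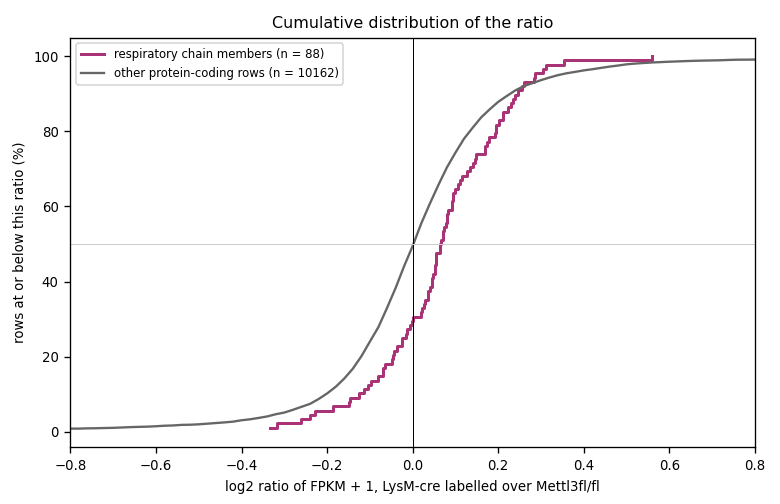
Cumulative share (vertical axis, %) of rows at or below each log2 ratio of FPKM + 1 (horizontal axis, library labelled LysM-cre over Mettl3fl/fl library), for the 88 kept members and the 10162 other protein-coding rows kept. Around 0 the members' curve lies to the right, with a median of 0.07 against 0.00.

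The lean was a shift of the middle, while the spread against other rows depended on level. The interquartile range of the log2 ratio was 0.18 over the 88 members and 0.20 over the other protein-coding rows kept. Between 5 and 20 FPKM it was wider over the members (0.27) than over other rows (0.19). It was narrower over the members between 1 and 5 FPKM (0.18 and 0.23), between 20 and 60 FPKM (0.12 and 0.16) and from 60 FPKM on (0.11 and 0.15). The order of the members by FPKM was nearly the same in both libraries (Spearman's rho of 0.99 across 88 genes, which are not independent replicates). The lean differed by level. Between 1 and 5 FPKM 5 of 10 members were higher (median log2 ratio 0.00), against 51.6% of 3919 other protein-coding rows. From 60 FPKM on 6 of 9 members were higher (median 0.08), against 56.9% of 619 other protein-coding rows (median 0.02). Between 20 and 60 FPKM, the library labelled LysM-cre had 32 of 38 members higher (median 0.09), against 49.6% of 1432 other protein-coding rows, while between 5 and 20 FPKM 18 of 31 members were higher (median 0.04), against 48.9% of 4192 other rows.

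The ratio between the libraries also varied with annotated transcript length, and markers of cell types differed between them. The part of either in the lean was not tested. Of other protein-coding rows whose shortest principal mRNA was under 600 bases, the library labelled LysM-cre had 59.1% higher (median log2 ratio 0.03, 198 rows), and of those from 4000 bases on 40.7% were higher (median −0.03, 2697 rows). Members are short: 30 had such an mRNA under 600 bases, of which 24 were higher (median 0.09), and none reached 4000 bases. Between 600 and 800 bases the median was 0.05 over 17 members and 0.06 over 290 other rows, and between 800 and 1200 bases it was 0.00 over 17 members and 0.05 over 776 other rows. Between 1200 and 2000 bases it was 0.05 over 17 members and 0.02 over 2038 other rows, and between 2000 and 4000 bases 0.04 over 6 members and 0.00 over 4142 other rows. The members' median was thus above that of other rows in 3 of the 5 length classes that held members. As to cells, the library labelled LysM-cre had 8 of 9 neutrophil markers lower (summed level 9184 FPKM, against 10352 FPKM in the Mettl3fl/fl library). All 7 macrophage markers (2237 and 2020 FPKM), all 5 eosinophil markers (152 and 94.2 FPKM) and all 6 erythroid markers (1379 and 984 FPKM) were higher. Of 5 monocyte markers 4 were higher (761 and 682 FPKM), among them Cx3cr1 with 61.6 and 6.16 FPKM. Of 6 B and plasma cell markers 5 were lower although their sum was higher, through Jchain alone (727 and 441 FPKM). Of 7 T and NK cell markers 5 were kept, 4 of them lower (118.2 and 118.0 FPKM), and 5 tumour epithelium markers summed to 4.07 and 3.85 FPKM with Krt19 at 0 in both. Neutrophil and monocyte markers, which define the labelled cell type, were thus present in both libraries beside RNA of other cells. In bulk RNA, fewer cells of a type and less RNA per cell cannot be told apart.

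Promoters are shown because many respiratory chain genes are known targets of the transcription factors NRF1, GABP (an ETS factor) and YY1. RefSeq promoter windows (GRCm38.p6) ran from 250 bases before to 50 after a start site. They were matched by Ensembl identifier, symbol or synonym for 78 of the 96 rows, 73 of them kept genes. The other protein-coding genes kept were matched by symbol alone. The letters GCGCA, any base and GCGC (NRF1, both strands) were in a window of 19 of the 73 genes (26.03%), against 12.2% of 8181 other protein-coding genes kept. ANATGGCG (YY1, both strands) was there in 14 (19.2%), against 8.80%, and CCGGAAG (ETS, both strands) in 19 (26.03%), against 21.9%. At least 1 of these 3 was found in 45 genes (61.6%), against 36.7% of the other genes kept. The GC box GGGCGG (both strands) was less frequent, in 33 genes (45.2%) against 68.8%, and TATAAA (both strands) was in 6 (8.22%) against 8.62%. Members with the NRF1 letters had a median log2 ratio of 0.06 and members without them 0.08. The medians with and without the letters were 0.04 and 0.08 for YY1 and 0.04 and 0.08 for TATAAA. For ETS they were 0.08 and 0.06 and for the GC box 0.09 and 0.06, so the motifs did not share a direction. Of all 26994 genes with a window, 5.17% held the NRF1 letters, 4.22% the YY1 letters, 9.92% the ETS letters, 38.2% the GC box and 15.7% TATAAA. Each motif was counted on its own, whether or not it overlapped another. A match is a run of letters and not a measured binding site. Of the 4 promoters printed, those of Uqcr11 and Ndufs5 belong to members on the higher side in the library labelled LysM-cre. Those of Ndufs8 and Ndufa11 belong to members on the lower side, Ndufa11 within counting error of level. Each runs 5′ to 3′ on the strand of its gene (plus for Ndufa11, minus for the others) and ends before the deposited gene row. Capitals mark the NRF1 letters in Ndufs5 and Ndufa11 and the ETS letters in Uqcr11, while the Ndufs8 stretch holds none, although its window has the ETS letters after the start site, outside the stretch printed, and is among the 19 counted.
Uqcr11, chr10:80406831-80407071: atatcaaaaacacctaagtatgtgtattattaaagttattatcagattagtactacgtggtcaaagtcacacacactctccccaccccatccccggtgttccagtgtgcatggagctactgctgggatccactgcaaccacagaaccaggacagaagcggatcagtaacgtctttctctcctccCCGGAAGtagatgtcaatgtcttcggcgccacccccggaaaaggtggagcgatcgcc
Ndufs5, chr4:123718187-123718436: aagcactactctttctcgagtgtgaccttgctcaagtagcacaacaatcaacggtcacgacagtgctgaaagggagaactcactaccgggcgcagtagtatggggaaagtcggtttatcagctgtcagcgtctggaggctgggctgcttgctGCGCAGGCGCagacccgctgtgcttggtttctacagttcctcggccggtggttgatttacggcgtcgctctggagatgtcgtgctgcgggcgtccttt
Ndufs8, chr19:3912775-3913024: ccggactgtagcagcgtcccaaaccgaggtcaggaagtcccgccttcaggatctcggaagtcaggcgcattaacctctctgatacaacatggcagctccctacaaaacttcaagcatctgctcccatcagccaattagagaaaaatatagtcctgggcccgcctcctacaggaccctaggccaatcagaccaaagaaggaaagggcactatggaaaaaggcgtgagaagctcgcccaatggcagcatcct
Ndufa11, chr17:56717512-56717761: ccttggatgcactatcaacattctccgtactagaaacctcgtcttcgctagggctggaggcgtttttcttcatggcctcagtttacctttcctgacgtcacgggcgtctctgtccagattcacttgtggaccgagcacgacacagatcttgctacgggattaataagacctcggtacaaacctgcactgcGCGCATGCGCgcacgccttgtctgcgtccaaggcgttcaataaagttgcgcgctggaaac
The NRF1 letters began 98 bases before the start site in Ndufs5 (log2 ratio 0.28) and 60 bases before it in Ndufa11 (log2 ratio −0.05), so they stood before a member on each side of 0. The ETS letters of Uqcr11 began 66 bases before its start site.

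**Figure D2:**
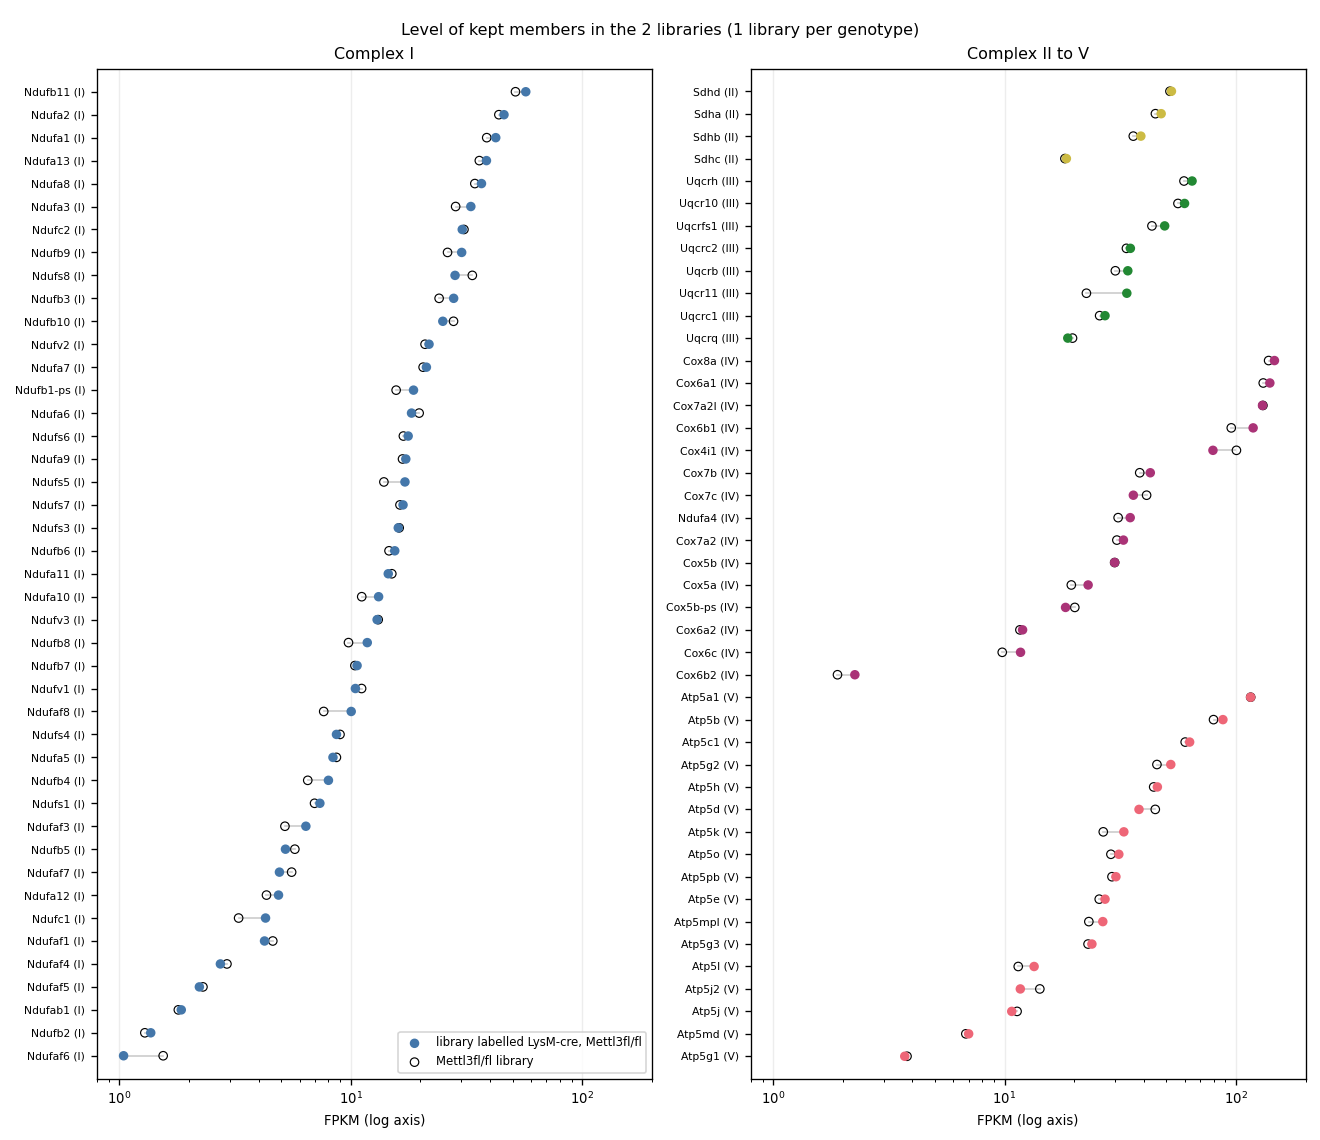
FPKM (log axis) of kept members in the library labelled LysM-cre (filled points, coloured by complex) and in the Mettl3fl/fl library (open circles), with complex I on the left and complexes II to V on the right. Most pairs nearly coincide, while Uqcr11 (33.8 and 22.6 FPKM) and Cox4i1 (79.6 and 100.5 FPKM) show gaps in opposite directions.

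Complex I, the NADH dehydrogenase, had 28 of 44 kept rows above and 16 below the Mettl3fl/fl library in the library labelled LysM-cre (median log2 ratio 0.05). Of the accessory subunits, which surround and stabilise the catalytic core, 22 of 30 were higher (median 0.07). The 7 core subunits, which bind NADH, flavin, iron-sulfur clusters or quinone, were close to level, with 4 higher and 3 lower (median 0.04). Summed over the core subunits the CPM ratio was 1.00 (exact 95% interval 0.985 to 1.02), and over the accessory subunits it was 1.06 (1.05 to 1.07). The core sum includes Ndufs8, the core subunit furthest from level (CPM ratio 0.841). Transcript length was not taken into account in this comparison of core and accessory subunits.

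Among the core subunits, Ndufs1, the largest iron-sulfur subunit, had 7.35 FPKM in the library labelled LysM-cre and 6.97 FPKM in the Mettl3fl/fl library, and Ndufv2, an iron-sulfur subunit of the NADH-binding module, had 21.8 and 20.9 FPKM. The interval of the CPM ratio excluded 1 for Ndufs1 (1.01 to 1.10) and included it for Ndufv2 (0.989 to 1.09). Ndufs3 (16.0 and 16.2 FPKM) and Ndufs7 (16.8 and 16.3 FPKM), both of the quinone-binding module, had intervals that included 1. Ndufv1, which binds flavin and NADH, had 10.5 FPKM in the library labelled LysM-cre and 11.1 FPKM in the Mettl3fl/fl library. Ndufs8, which holds a pair of iron-sulfur clusters on the path to quinone, was the core subunit furthest from level. It had 2428 counts and 28.2 FPKM in the library labelled LysM-cre, against 2891 counts and 33.5 FPKM in the Mettl3fl/fl library (CPM ratio 0.841, exact 95% interval 0.797 to 0.888).

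Among the accessory subunits the widest differences were all towards the library labelled LysM-cre. Ndufc1, a small membrane-arm subunit, had 428 counts and 4.28 FPKM in that library, against 328 counts and 3.27 FPKM in the Mettl3fl/fl library (CPM ratio 1.31, exact 95% interval 1.13 to 1.51). Ndufs5, on the intermembrane-space side, had 984 counts and 17.1 FPKM, against 799 counts and 13.9 FPKM (1.23, 1.12 to 1.36). Both rest on fewer counts than most core subunits, and their intervals are wider. Ndufb4 (8.00 and 6.51 FPKM) and Ndufb8 (11.8 and 9.77 FPKM) of the membrane arm went the same way. Ndufb10 of the same arm had 25.0 FPKM in the library labelled LysM-cre and 27.8 FPKM in the Mettl3fl/fl library, the lowest ratio of the accessory subunits, so the membrane arm did not share 1 direction. Ndufb11, X-linked, had the highest FPKM of complex I (57.0 and 51.5 FPKM), and Ndufb2 the lowest of its subunits (1.37 and 1.29 FPKM). The remaining accessory subunits had log2 ratios between −0.11 and 0.24. Some rows share sequence or place with another: Ndufa12 held 511 and 455 counts, fewer than its copy Ndufa12-ps with 1029 and 935 counts, and Ndufa3 overlaps Tfpt on the opposite strand (457 and 667 counts). Whether the authors' counts used strand, or how they treated reads that fit several rows, is stated in no source used here.

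The Ndufaf assembly factors, which help to build complex I without staying in it, had 2 of 7 kept rows higher and 5 lower (median log2 ratio −0.07), while the CPM ratio of their summed counts was 1.02 (exact 95% interval 0.973 to 1.06). Ndufaf8, needed for the function of Ndufaf5, had the second highest ratio of the kept members after Uqcr11. It held 560 counts and 10.04 FPKM in the library labelled LysM-cre, against 426 counts and 7.63 FPKM in the Mettl3fl/fl library (CPM ratio 1.32, exact 95% interval 1.16 to 1.497). Ndufaf6 had the lowest CPM ratio of the kept members, on few counts, with 88 counts and 1.04 FPKM in the library labelled LysM-cre, against 131 counts and 1.55 FPKM (0.673, 0.508 to 0.889). Ndufaf7, a methyltransferase, had 4.91 and 5.55 FPKM, and Ndufaf1, Ndufaf4 and Ndufaf5 had intervals that included 1. Ndufaf3 had 6.39 FPKM in the library labelled LysM-cre and 5.19 FPKM in the Mettl3fl/fl library, and Impdh2, which overlaps it on the opposite strand, held 2832 and 2257 counts. Ndufaf2 lay under the minimum with 201 counts and 1.01 FPKM, against 130 counts and 0.649 FPKM (1.55, 1.24 to 1.95), beside 1292 and 2182 counts of Smim15 on the opposite strand. Of 7 kept complex I assembly factors with other names, 2 were higher and 5 lower (median −0.05). Dmac1 had 32.5 and 24.5 FPKM, Tmem126b 3.33 and 2.64 FPKM, Foxred1 5.12 and 6.07 FPKM and Tmem186 4.52 and 5.01 FPKM.

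**Figure D3:**
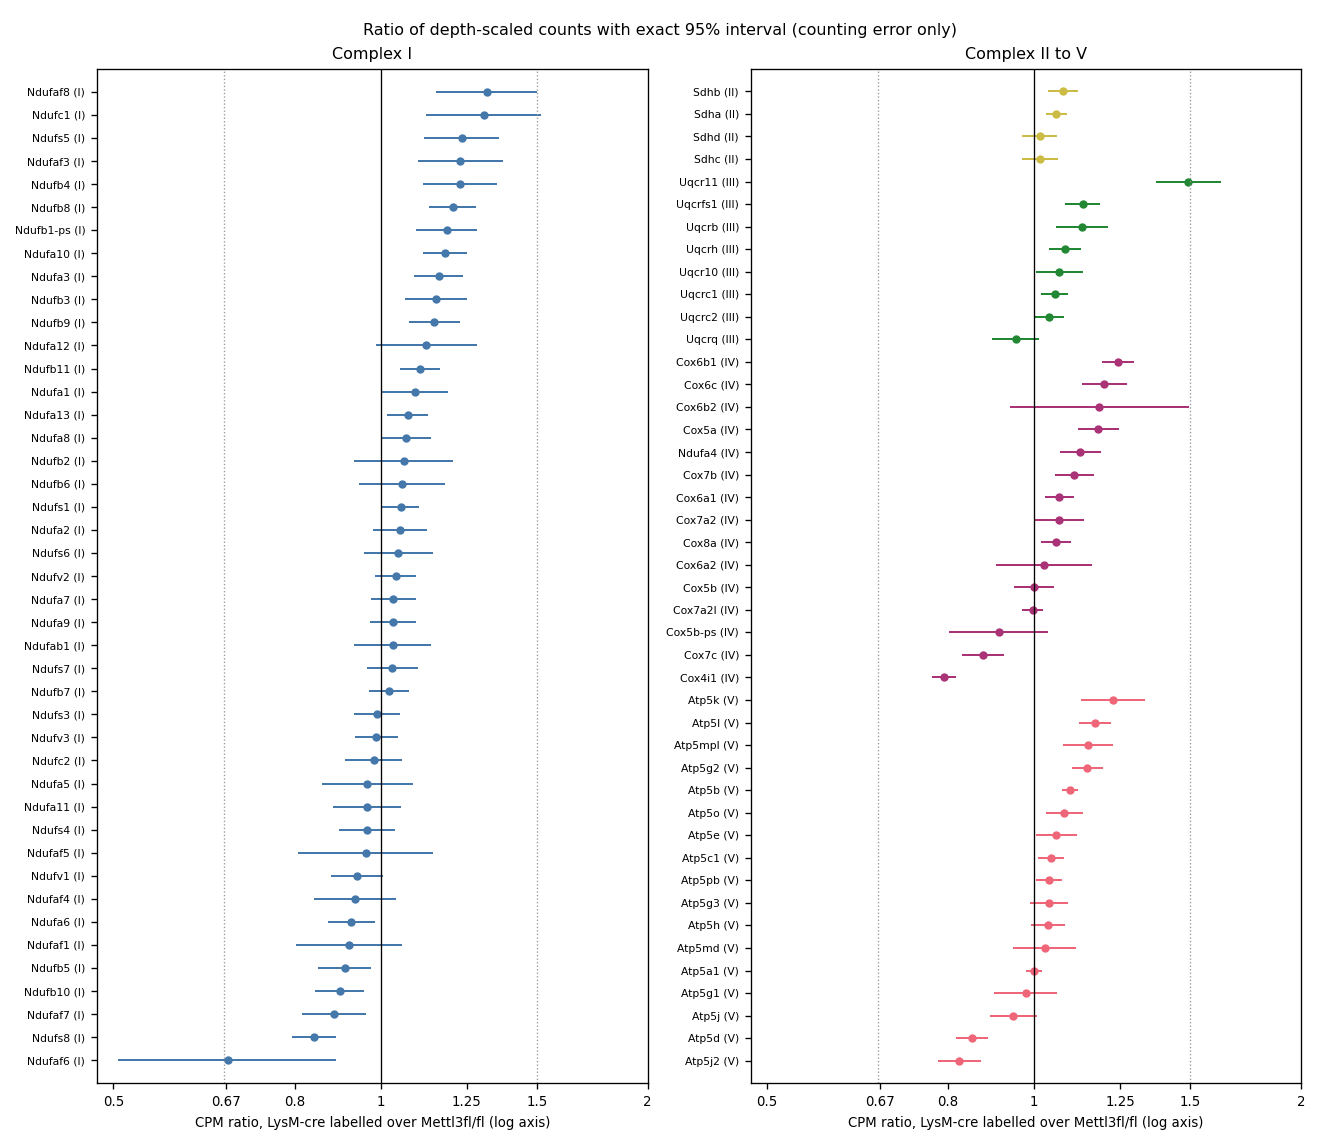
CPM ratio (log axis, library labelled LysM-cre over Mettl3fl/fl library) of kept members, each with its exact 95% interval, which covers counting error only, coloured by complex, with dotted lines at 1.5-fold in either direction. Ndufaf6, Uqcr11 and Cox4i1 stand clear of their neighbours.

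Complex II, succinate dehydrogenase, is an enzyme of the citric acid cycle as well. All 4 subunits leaned to the library labelled LysM-cre (median log2 ratio 0.05), and the catalytic pair differed more than the anchors. Sdha, the flavoprotein that oxidises succinate, had 47.5 FPKM in the library labelled LysM-cre and 44.9 FPKM in the Mettl3fl/fl library (CPM ratio 1.06, exact 95% interval 1.03 to 1.08). Sdhb, the iron-sulfur subunit, had 38.8 and 36.0 FPKM (1.08, 1.04 to 1.12). The membrane anchors Sdhc (18.5 and 18.2 FPKM) and Sdhd (52.6 and 51.9 FPKM) had intervals that included 1. Of 3 kept complex II assembly factors 1 was higher and 2 lower, Sdhaf1 with 5.41 and 4.95 FPKM, Sdhaf2 with 3.55 and 3.59 FPKM and Sdhaf4 with 6.19 and 6.24 FPKM. Of 13 citric acid cycle genes 8 were higher and 5 lower (median 0.03), none past the lower threshold of 25% higher or 20% lower. Among those further from level were Suclg2 of succinyl-CoA ligase (4.85 and 5.72 FPKM), fumarase Fh1 (8.96 and 8.15 FPKM) and Idh3g of isocitrate dehydrogenase (24.1 and 22.5 FPKM).

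Complex III, the cytochrome bc1 complex, had the highest median of the 5 complexes (log2 ratio 0.10), and 7 of 8 genes were on the higher side in the library labelled LysM-cre. Uqcr11, one of its small subunits (ENSMUSG00000020163, chromosome 10, 80402997 to 80406830 on the minus strand, mm10), had the highest log2 ratio of the kept members. It held 1443 counts and 33.8 FPKM in the library labelled LysM-cre, against 969 counts and 22.6 FPKM in the Mettl3fl/fl library, a CPM ratio of 1.49 (exact 95% interval 1.37 to 1.62) and a log2 ratio of 0.56. It lay just inside the 1.5-fold limit, and no other row with counts overlaps it. The other genes of the complex were far nearer to level. Uqcrfs1, the Rieske iron-sulfur protein that takes electrons from ubiquinol, had 49.2 FPKM in the library labelled LysM-cre and 43.4 FPKM in the Mettl3fl/fl library (1.13, 1.09 to 1.18). Uqcrb, near the quinone site, had 34.1 and 30.1 FPKM, and Uqcrh, the hinge protein next to cytochrome c1, had 64.6 and 59.6 FPKM, the highest of the complex. The large core proteins Uqcrc1 (27.2 and 25.8 FPKM) and Uqcrc2 (34.98 and 33.6 FPKM) and the small Uqcr10 (60.0 and 56.2 FPKM) had the same direction. Uqcrq, the lowest of the complex by FPKM, had 18.8 FPKM in the library labelled LysM-cre and 19.7 FPKM in the Mettl3fl/fl library. Cyc1, the gene of cytochrome c1, which the name rule does not take, had 25.5 and 23.0 FPKM, and the mobile carrier Cycs 14.7 and 14.2 FPKM. The assembly factors of complex III were mixed, with 3 of 5 kept higher (median 0.03). Ttc19 had 2.18 and 1.66 FPKM, Uqcc3 18.6 and 18.0 FPKM, Bcs1l, which inserts the Rieske protein, 2.76 and 3.34 FPKM, and Uqcc1 3.04 and 3.63 FPKM.

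Complex IV, cytochrome c oxidase, leaned to the library labelled LysM-cre in 10 of 15 kept rows and away from it in 5 (median log2 ratio 0.09), yet held the member with the lowest log2 ratio. Cox4i1, the widely expressed form of the largest nuclear subunit (ENSMUSG00000031818, chromosome 8, 120668222 to 120674207 on the plus strand, mm10), had 8223 counts and 79.6 FPKM in the library labelled LysM-cre, against 10409 counts and 100.5 FPKM in the Mettl3fl/fl library. Its CPM ratio was 0.791 (exact 95% interval 0.769 to 0.815) and its log2 ratio −0.33. Emc8, on the opposite strand, overlaps it and had 1364 and 1206 counts, a difference in the other direction. Cox7c, a small subunit, also was lower, with 36.0 FPKM in the library labelled LysM-cre and 41.1 FPKM in the Mettl3fl/fl library. Cox6b1, which bridges the dimer, went the opposite way with 5602 counts and 119 FPKM, against 4517 counts and 95.5 FPKM (1.24, 1.19 to 1.29). Cox5a, next to Cox4i1 in early assembly, had 23.0 and 19.4 FPKM, and Cox6c had 11.7 and 9.77 FPKM, its row overlapping Vps13b on the opposite strand (7157 and 7846 counts). Cox4i1 and its assembly partner Cox5a thus lay on opposite sides of 0. Cox5b, the zinc-binding subunit, was level (29.9 and 29.9 FPKM), and the pseudogene row Cox5b-ps had 18.4 and 20.1 FPKM on 478 and 525 counts. Ndufa4 had 34.9 FPKM in the library labelled LysM-cre and 31.0 FPKM in the Mettl3fl/fl library.

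The paired isoforms of complex IV showed the ubiquitous forms in both libraries, with the muscle, lung and testis forms below them or at 0. Cox8a had the highest FPKM of all members (147 and 138 FPKM), and its muscle and testis relatives Cox8b and Cox8c had no counts. Cox6a1 had 140.1 and 131 FPKM, against 11.97 and 11.7 FPKM for the muscle form Cox6a2, whose 543 and 530 counts lie opposite Itgad with 44544 and 37710 counts. Cox7a2 had 32.6 and 30.6 FPKM and Cox7a2l 130.3 and 131 FPKM, while the muscle form Cox7a1 had 17 and 7 counts. Cox4i2, the lung form, had 41 and 25 counts, and both of these stayed under the minimum. Cox6b2, a testis form, was the lowest row kept of complex IV (2.26 and 1.897 FPKM), and Cox7b had 42.6 and 38.4 FPKM, with no count for the testis form Cox7b2. Ndufa4l2, known for its induction in low oxygen, had no counts. For the rows at 0, a count of 0 allows up to 3 counts of each total. The second Atp5o row, also at 0, overlaps the first on the same strand (4100 and 3798 counts). How reads in the overlap were assigned is not known, so this bound does not apply to that row.

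Assembly factors of complex IV leaned as its subunits did, with 14 of 21 on the higher side in the library labelled LysM-cre and 7 on the lower side (median log2 ratio 0.04). Sco2, Coa4, Cox19 and Cox11 had CPM ratios further from 1 than any kept row of complex IV, all but Cox11 on the higher side. Sco2, which delivers copper, had 206 counts and 2.46 FPKM in the library labelled LysM-cre, against 131 counts and 1.55 FPKM in the Mettl3fl/fl library (CPM ratio 1.58, exact 95% interval 1.26 to 1.98). Coa4 had 4.03 and 2.78 FPKM and Cox19 3.20 and 2.37 FPKM. Cox11, also of copper delivery, went the other way with 182 counts and 1.91 FPKM, against 272 counts and 2.85 FPKM (0.67, 0.553 to 0.812). Copper delivery genes were therefore found on both sides of 0.

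Complex V, the ATP synthase, leaned to the library labelled LysM-cre in 12 of 17 kept rows and away from it in 5 (median log2 ratio 0.05). Atp5a1, the alpha subunit and the highest of the complex by FPKM, had 116 FPKM in each library on 24191 and 24256 counts. Atp5b, the catalytic beta subunit, had 87.8 FPKM in the library labelled LysM-cre and 80.0 FPKM in the Mettl3fl/fl library (CPM ratio 1.10, exact 95% interval 1.08 to 1.12). Alpha and beta occur in equal number in the enzyme, and of this pair only beta had an interval that excluded 1. Of the rotating shaft, gamma (Atp5c1) had 63.1 and 60.4 FPKM and epsilon (Atp5e) 27.2 and 25.7 FPKM. Delta (Atp5d) had 4900 counts and 38.1 FPKM in the library labelled LysM-cre, against 5773 counts and 44.8 FPKM in the Mettl3fl/fl library (0.850, 0.818 to 0.884), so the shaft genes did not share a direction.

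The 3 genes of the proton-carrying c-ring encode the same mature protein. Atp5g2 had 52.3 FPKM in the library labelled LysM-cre and 45.6 FPKM in the Mettl3fl/fl library, Atp5g3 23.9 and 23.0 FPKM, and Atp5g1, the lowest of complex V, 3.70 and 3.79 FPKM. The most abundant of the 3 thus also differed most. The membrane subunits at the dimer face included both ends of complex V. Atp5k (subunit e) had 32.8 FPKM in the library labelled LysM-cre and 26.7 FPKM in the Mettl3fl/fl library (CPM ratio 1.23, exact 95% interval 1.13 to 1.33), and Atp5l (subunit g), its partner, 13.4 and 11.5 FPKM (1.17, 1.13 to 1.22). Atp5j2 (subunit f) had 11.7 and 14.2 FPKM (0.824, 0.781 to 0.868). Atp5mpl had 26.6 and 23.1 FPKM and Atp5md 7.00 and 6.80 FPKM. The stalk subunits lay near level, Atp5o with 31.2 and 28.8 FPKM, Atp5h with 45.8 and 44.1 FPKM, Atp5pb with 30.3 and 29.1 FPKM and Atp5j with 10.7 and 11.3 FPKM, the last opposite Gabpa on the other strand. Atpif1, the inhibitor of the enzyme, had 22.6 FPKM in the library labelled LysM-cre and 18.8 FPKM in the Mettl3fl/fl library. Tmem70, an assembly factor known for supporting the c-ring, had 481 counts and 3.95 FPKM in the library labelled LysM-cre, against 970 counts and 7.96 FPKM in the Mettl3fl/fl library (0.497, 0.444 to 0.555). The other assembly factors were near level, Tmem242 with 7.37 and 6.98 FPKM, Atpaf2 with 6.67 and 7.00 FPKM and Atpaf1 with 1.245 and 1.27 FPKM, while 2 of the 3 c-ring genes lay on the higher side.

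The order of levels depended on the gene length behind the FPKM. The length implied by the authors' FPKM was 1.12 times the union of all annotated exons of a gene (median over members), and 99.2% of 12016 kept rows were within 5% of the median over all kept rows. That union exceeded the shortest principal mRNA by a median of 1.66 times over the members, by 2 times or more in 37 and by 12.4 times in Ndufb2. As depth-scaled counts (CPM) per kb of principal mRNA, Ndufb2 had 19.1 in the library labelled LysM-cre and 17.9 in the Mettl3fl/fl library. On that scale Ndufb7 (86.7 and 84.9) led complex I, Sdhb (85.4 and 79.3) complex II, Uqcrh (164 and 151) complex III, Cox7a2l (201 and 202) complex IV and Atp5g2 (223 and 194) complex V. Spearman's rho between both scales was 0.76 across the members in the library labelled LysM-cre, a description over genes. A ratio between libraries does not depend on this length, apart from the pseudocount.

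**Figure D4:**
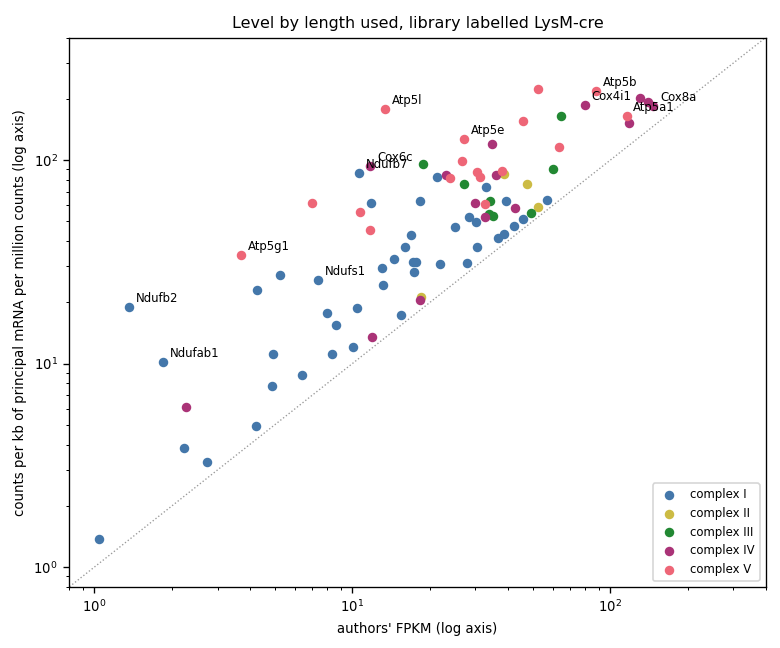
Depth-scaled counts (CPM) per kb of the shortest principal mRNA (vertical log axis) against the authors' FPKM (horizontal log axis) for the kept members in the library labelled LysM-cre, coloured by complex, with a dotted line of equality. Ndufb2 (1.37 FPKM and 19.1 per kb of mRNA) and Atp5l (13.4 FPKM and 178 per kb of mRNA) lie far above the line.

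The subunits encoded in mitochondrial DNA were set beside the nuclear ones because each complex other than II is built from both. In the library labelled LysM-cre 10 of 13 were higher and 3 lower (median log2 ratio 0.13), and they took 2.31% of its counts, against 2.05% in the Mettl3fl/fl library. The 4 furthest from level belong to complexes IV and V. They are also neighbours among these 13 genes on the plus strand, and the rows of mt-Atp8 and mt-Atp6 overlap. The oxidase subunit mt-Co1, which lies before this run, had a CPM ratio of 1.11. The oxidase subunits mt-Co3 (2188 and 1592 FPKM) and mt-Co2 (2669 and 1963 FPKM) and the ATP synthase subunit mt-Atp6 (2676 and 2052 FPKM) were 25% or more higher, and mt-Atp8 had 2078 and 1663 FPKM. The complex I subunits of mitochondrial DNA lay on both sides, with CPM ratios from 0.931 for mt-Nd5 (560 and 601 FPKM) to 1.15 for mt-Nd4l (876 and 764 FPKM). The nuclear subunits of complexes IV and V had medians of 0.09 and 0.05.

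Regulators of mitochondrial biogenesis leaned to the library labelled LysM-cre in 5 of 13 kept genes and away from it in 8 (median log2 ratio −0.04), and the CPM ratio of their summed counts was 1.01 (exact 95% interval 0.989 to 1.02). Ppargc1b, a coactivator, had 1.04 FPKM in the library labelled LysM-cre and 1.45 FPKM in the Mettl3fl/fl library. The mitochondrial transcription factor Tfb2m had 5.67 and 4.90 FPKM, and of the DNA polymerase of mitochondria, Polg had 7.66 and 6.79 FPKM and its accessory subunit Polg2 2.86 and 3.36 FPKM. Of the factors whose letters were counted in the promoters, Nrf1 had 2.49 FPKM in the library labelled LysM-cre and 2.18 FPKM in the Mettl3fl/fl library (CPM ratio 1.14, exact 95% interval 1.06 to 1.22). Gabpa had 10.02 and 10.4 FPKM and Yy1 18.6 and 18.4 FPKM, both with intervals that included 1. Ppargc1a, the coactivator known from muscle and brown fat, had 4 and 17 counts and stayed under the minimum.

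**Figure D5:**
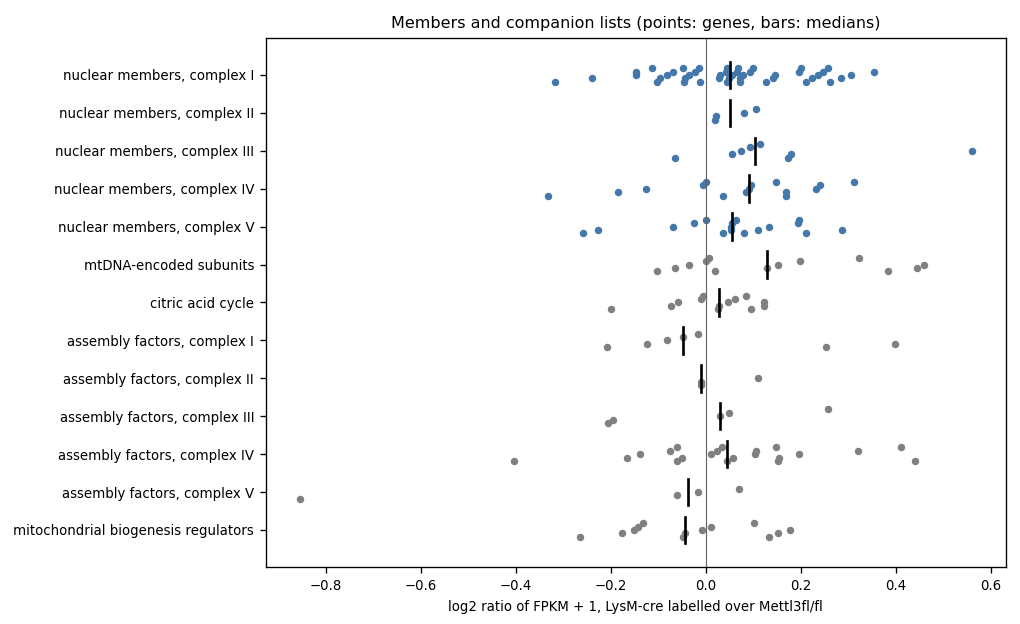
Log2 ratio of FPKM + 1 (horizontal axis, library labelled LysM-cre over Mettl3fl/fl library) of each kept gene (points) with the median of each group (bars), for the nuclear members by complex and the companion lists. The medians of the 5 complexes lie between 0.05 and 0.10, and Tmem70 is the point furthest to the left at −0.86.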

How the data were processed

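RNA from 2 libraries of mouse MDSCs, 1 per genotype as the labels give it, was analysed. Libraries were made from poly(A) RNA with dUTP marking and read as paired ends, per the labels' protocols. The submitters' processing notes name cutadapt 1.9, HISAT2 2.0.4, StringTie 1.3.4d, edgeR, DESeq2 and build mm10, without roles or settings. The deposited table holds whole-number counts, not normalized, and FPKM values that the authors scaled for depth and gene length. Rows with no count carry 0.0001 in the FPKM column, taken here as 0. A further 8 columns, of 4 libraries without labels, were left aside.

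The minimum for a row was a mean of 1 FPKM. Differences are log2 ratios of FPKM + 1, with the Mettl3fl/fl library as the denominator, and were counted past 1.5-fold. Ratios of CPM carry exact 95% (Clopper-Pearson) intervals. They cover counting error only, since reads of PCR copies do not count separate molecules. Members and gene lists were chosen with earlier results of these data known. The genes named are the core subunits, the 4 furthest from level in each complex and each companion list, isoform sets, the highest and lowest level of each complex and the rows not kept. Ndufb4, Ndufb8, Ndufb10, Ndufb7, Ndufaf3, Ndufaf7, Ndufa3, Ndufa11, Ndufa12, Uqcr10, Cox7c, the remaining complex V genes, Cycs, Nrf1, Gabpa, Yy1, mt-Nd4l, mt-Nd5 and Cx3cr1 were named after their values were seen. Single values of a few genes that this rule names are left out here and from the plots that name genes. Transcript lengths came from GENCODE M21 on the same build. Of each gene, the shortest APPRIS principal protein-coding transcript was used, and Ndufb1-ps had none. Alternatives were other pseudocounts, minimums, thresholds and scalings (TPM, edgeR 4.0.16 TMM, median-ratio size factors) and subsets of rows. The scripts were tested on simulated data. Python 3.11.15, pandas 2.3.3, scipy 1.17.1 and R 4.3.3 were used.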

Additional observations from a re-analysis of the deposited data

How the results depend on the processing

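The counts past 1.5-fold were 0 in both directions under every alternative run that kept this threshold, and 0 at 2-fold as well. At the threshold of 25% higher or 20% lower they became 2 higher and 1 lower. The run with no minimum hardly tests the rows it adds, because FPKM + 1 understates ratios of such low rows. The CPM run with no pseudocount held kept rows only. Under the minimum, Ndufaf2 had a CPM ratio of 1.55 (interval 1.24 to 1.95), past 1.5-fold. Cox4i2 (1.64, 0.976 to 2.82) and Cox7a1 (2.43, 0.959 to 6.94) were past it too, with intervals that included 1. The median log2 ratio of the members lay between 0.05 (TPM) and 0.07 in all alternatives, and the medians of the 5 complexes kept their sign under other pseudocounts, scalings and the mean. The 4 alternatives chosen after seeing the data (length of the principal mRNA, CPM with no pseudocount, without the pseudogene row, and the 50 members with no overlapping row or copy that held counts) gave medians of 0.07. Rescaling to TPM moved the median of all kept rows by −0.02. No paired analysis was possible because each genotype has 1 library, and leaving out replicates does not apply. Depth limits the low members most: the CPM ratio of Ndufaf6 has an interval of 0.508 to 0.889, and that of Atp5a1 one of 0.982 to 1.02.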
